A study of Mus musculus with 6 samples.

Results

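The genes of the Hedgehog pathway were followed in the lungs of mice with an active human SRY transgene. The 9 genes, chosen by name, were Shh, Ptch1, Smo, Gli1, Gli2, Gli3, Hhip, Sufu and Boc, and every array probe that carries the symbol of one was taken. The array held probes for 8 of the 9 genes, out of 18138 gene symbols in all. No probe was found for Gli2 under its symbol, and older symbols were not searched for the 9 genes. The 8 genes had 12 probes, of which 10 probes for 6 genes passed the detection filter (3 or more of the 6 arrays with a detection p below 0.05) and were tested. The other 2 probes, those of Gli1 and Boc, were not detected on any array.

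Lungs came from male FVB mice (FVB/N in the study's methods) at postnatal day 6, with 3 hSRY-OFF and 3 hSRY-ON mice and 1 Illumina MouseRef-8 array for each mouse. In hSRY-ON mice, a single-copy Signalox-hSRY transgene had been recombined in the fertilized egg by Cre protein that the mother, a Ddx4-Cre mouse, had left in it, and the hSRY-ON array mice lacked the Cre gene themselves. After recombination the ubiquitous CAG promoter drives human SRY with a FLAG tag, together with EGFP, so the transgene is not restricted to a lung cell type. By the study's methods hSRY-OFF mice carry the unrecombined transgene, but the same methods also name littermates without it as controls, so the genotype of this group rests on its label. The transgene was studied as 1 insertion in 1 line. The study reports that hSRY-ON pups suckled little, lacked milk in the stomach and grew slowly, and that formation of their alveoli seemed arrested. Direct effects of the transgene cannot be told apart here from those of poor feeding and slow growth. The labels name 6 separate samples and give no litter, slide or scan, so batches of that kind cannot be told apart from the groups. In whole lung RNA, fewer cells of a type and less RNA per cell cannot be told apart.

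Hedgehog ligands are secreted proteins. A ligand binds Patched on the receiving cell, which releases the membrane protein Smoothened from inhibition. Smoothened then acts in the primary cilium, where Sufu holds back the Gli transcription factors, and released Gli proteins switch on target genes that include Ptch1, Gli1 and Hhip. In the developing lung the airway epithelium makes Shh and the surrounding mesenchyme, which gives rise to fibroblasts and smooth muscle, receives it.

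The members with a probe that passed the test were Smo and Gli3. Their upstream sequences are shown because these are the genes the results turn on. The stretches are the 250 bases before the gene start in RefSeq (build GRCm38.p6), both on the plus strand, at chr6:29735247-29735496 for Smo and chr13:15463473-15463722 for Gli3. Capitals mark a GC box, the letters GGGCGG on either strand.
Smo: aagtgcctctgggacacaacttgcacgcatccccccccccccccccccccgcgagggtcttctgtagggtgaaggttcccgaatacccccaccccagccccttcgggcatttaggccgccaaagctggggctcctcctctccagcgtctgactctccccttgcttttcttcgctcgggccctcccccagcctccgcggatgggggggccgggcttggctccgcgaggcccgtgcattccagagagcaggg
Gli3: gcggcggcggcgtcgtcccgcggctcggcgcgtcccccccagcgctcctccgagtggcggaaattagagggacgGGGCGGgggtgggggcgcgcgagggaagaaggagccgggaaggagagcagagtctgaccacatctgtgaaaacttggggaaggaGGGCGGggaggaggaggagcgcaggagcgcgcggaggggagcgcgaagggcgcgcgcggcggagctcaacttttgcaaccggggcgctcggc
The Gli3 stretch holds 2 GC boxes and the Smo stretch holds 0. RefSeq upstream stretches were at hand for 6 of the 9 genes, and 5 of these 6, all except Smo, hold a GC box, which 32.7% of all 32851 stretches of that length contain. The GLI motif GACCACCCA was in 0 of the 6, against 0.225% of all stretches. The SRY and SOX core motif AACAAT, searched on both strands like the others, was in 1 of the 6, that of Sufu, against 9.42% of all. The Smo and Gli3 stretches were 68.4% and 72.8% G and C, against a median of 52.4% over all stretches. These matches describe letters in a window and say nothing of binding.

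The arrays detected between 13191 and 14134 probes each. Values are log2 of the background-corrected and normalized intensity. Of the 13841 tested probes, 26.9% differed between the groups (limma, adjusted p under 0.05), 13.3% were lower in hSRY-ON by that test, and in 46.6% the values of the groups did not overlap. The median change over all tested probes was -0.03. The arrays of hSRY-ON varied more, with a median SD of 0.223 against 0.13 in hSRY-OFF. Transgene activity was not measured on these arrays, which carry no probe named for human SRY. The study did detect the SRY protein in newborn hSRY-ON lungs, by western blot and by immunostaining.

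Most Hedgehog probes were fitted lower in hSRY-ON lungs, but few of them passed the test. Of the 10 tested probes 3 were called, all lower in hSRY-ON, and they belong to Smo (2 of its 3 probes) and Gli3. The share called, 3 of 10, is near the 26.9% of all tested probes, while for the lower direction alone the share over all probes was 13.3%. The 2 called Smo probes report on 1 gene, and the Gli3 probe passed the detection filter through hSRY-OFF. No excess of falls is therefore read from these shares. The fitted change was below 0 for 9 of the 10 probes, against 53.2% of all tested probes, and the median was -0.50. The 9 include all 3 probes of Smo. The values of the groups did not overlap for 6 of the 10 probes, against 46.6% of all. Of the 7 probes not called, 4 had an unadjusted p under 0.05, and the adjusted p-values of the 7 (limma) ranged from 0.0578 to 0.891.

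**Figure D1:**
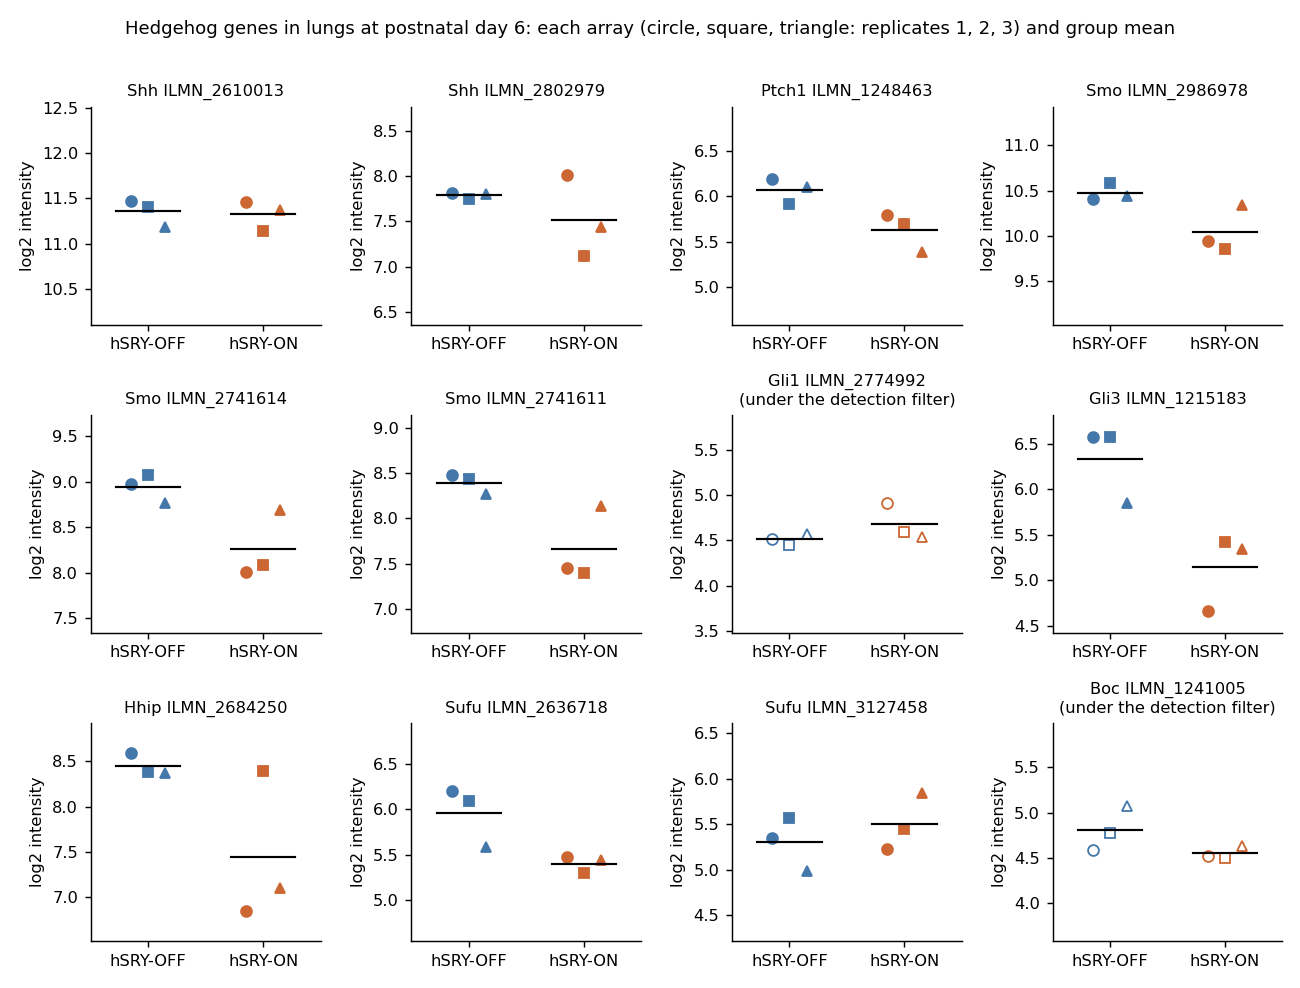
Normalized log2 intensity (vertical axis) of the 12 Hedgehog probes in each of the 3 hSRY-OFF and 3 hSRY-ON lungs, one panel a probe, with a bar at the group mean and open symbols for probes not detected on any array. Gli3 lay between 5.85 and 6.58 in hSRY-OFF and between 4.66 and 5.42 in hSRY-ON, and Hhip of hSRY-ON replicate 2 lay at 8.40 with the hSRY-OFF lungs.

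Shh, the ligand made by the lung epithelium, was not called by either of its 2 probes. Its probe ILMN_2610013 read 11.47, 11.40 and 11.19 in hSRY-OFF replicates 1 to 3 and 11.46, 11.14 and 11.37 in hSRY-ON replicates 1 to 3. Every hSRY-ON value lay within or just beneath the hSRY-OFF range, so the groups overlapped. The change was -0.03, with a 95% interval from -0.36 to 0.30 (limma, adjusted p = 0.891), which bounds a fall at 0.36 and a rise at 0.30 for this probe. The other Shh probe, ILMN_2802979, read 7.81, 7.75 and 7.80 in hSRY-OFF and 8.01, 7.12 and 7.43 in hSRY-ON. Here hSRY-ON replicate 1 stood above every hSRY-OFF lung and the other two stood below. Its change of -0.27 (95% interval from -0.79 to 0.25) did not pass the test (limma, adjusted p = 0.399), although without hSRY-ON replicate 1 it was -0.51 and passed it (limma, adjusted p = 0.0340).

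Ptch1, the receptor of the ligand and itself a target of the pathway, was measured by 1 dim probe. It read 6.18, 5.92 and 6.10 in hSRY-OFF and 5.79, 5.69 and 5.39 in hSRY-ON. All 3 hSRY-ON lungs lay below all 3 hSRY-OFF lungs. The means were 6.07 ± 0.14 (SD, n = 3) and 5.62 ± 0.21 (SD, n = 3), a change of -0.44 (SE 0.15), or 1.36-fold lower, and the adjusted p of 0.0656 (limma) missed the threshold. Without hSRY-ON replicate 1 the change was -0.54 and passed it (limma, adjusted p = 0.0402), and without background correction it was -0.13. The probe was detected on all 6 arrays, with detection p-values of up to 0.0439.

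Hhip, a membrane protein that traps Hedgehog ligands and is induced by them, differed between the mice of hSRY-ON. It read 8.59, 8.38 and 8.37 in hSRY-OFF and 6.85, 8.40 and 7.10 in hSRY-ON. Replicates 1 and 3 of that group were below every hSRY-OFF lung, while replicate 2 was at the hSRY-OFF level, so the groups overlapped. The SD was 0.83 in hSRY-ON and 0.13 in hSRY-OFF, and the change of -1.0 (SE 0.38), or 2.0-fold lower, was not called (limma, adjusted p = 0.0905). Without hSRY-ON replicate 2 the change was -1.47 and passed the test (limma, adjusted p = 0.00493). Boc, a co-receptor that helps Patched bind the ligand, was not detected on any array, with detection p-values from 0.127 to 0.881.

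Smo, the membrane protein that relays the signal once Patched is bound, was lower by each of its 3 probes, and 2 of them passed the test. Probe ILMN_2741611 read 8.48, 8.43 and 8.27 in hSRY-OFF and 7.45, 7.40 and 8.13 in hSRY-ON. Replicates 1 and 2 of hSRY-ON were well below the hSRY-OFF lungs and replicate 3 was just below the lowest of them. The change was -0.73 (SE 0.21, 95% interval from -1.22 to -0.24), or 1.66-fold lower (limma, adjusted p = 0.0410).

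Smo probe ILMN_2741614 read 8.97, 9.07 and 8.77 in hSRY-OFF and 8.0, 8.09 and 8.69 in hSRY-ON, with replicate 3 again the highest of the hSRY-ON mice. It fell by 0.68 on the log2 scale (SE 0.20), or 1.60-fold (limma, adjusted p = 0.0469). The brightest Smo probe, ILMN_2986978, read 10.40, 10.59 and 10.44 against 9.94, 9.86 and 10.35. Its groups did not overlap either, and its change of -0.43 (SE 0.16), or 1.35-fold lower, was not called (limma, adjusted p = 0.0862). The 3 probes report on 1 gene and are not independent of each other. The calls of Smo were close to the threshold. Under the 15 alternative settings of processing and left-out arrays, ILMN_2741611 was called in 8 with changes from -0.96 to -0.47, and ILMN_2741614 in 7 with changes from -0.89 to -0.49. Without any 1 of the arrays other than hSRY-ON replicate 3, neither was called.

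Sufu, which restrains the Gli proteins, gave different signs by its 2 probes. Probe ILMN_2636718 read 6.21, 6.09 and 5.59 in hSRY-OFF and 5.48, 5.30 and 5.44 in hSRY-ON. All hSRY-ON lungs were below all hSRY-OFF lungs, but the change of -0.56 (SE 0.18) was not called (limma, adjusted p = 0.0578). Without hSRY-OFF replicate 3 it was -0.73 and was called (limma, adjusted p = 0.0267). Probe ILMN_3127458 read 5.35, 5.57 and 4.98 against 5.23, 5.45 and 5.84, so that its groups overlapped, and its change was 0.21 (95% interval from -0.29 to 0.71, limma, adjusted p = 0.495). Both Sufu probes lie near the background, the second being detected on 2 arrays of each group.

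Gli3, the Gli factor best known as a repressor of target genes when no ligand is present, was lower in hSRY-ON. Its probe read 6.58, 6.57 and 5.85 in hSRY-OFF and 4.66, 5.42 and 5.35 in hSRY-ON. The highest hSRY-ON lung lay below the lowest hSRY-OFF lung. The means were 6.33 ± 0.42 (SD, n = 3) and 5.14 ± 0.42 (SD, n = 3), a fitted change of -1.19 (SE 0.28, 95% interval from -1.84 to -0.54, limma, adjusted p = 0.0207). The probe is dim and was detected on all 3 hSRY-OFF arrays but on only 1 hSRY-ON array, so it passed the detection filter through the group in which it is high. The fitted change, its interval and its p therefore rest in part on hSRY-ON values not above background. With each hSRY-ON value raised to at least the lowest detected value on its array, the change was -0.92, or 1.90-fold lower. It was called in 12 of the 14 alternatives that keep the probe, with a change of -0.37 without background correction and up to -1.41 otherwise. The call was lost without hSRY-OFF replicate 1 (limma, adjusted p = 0.0814) and without hSRY-OFF replicate 2 (limma, adjusted p = 0.0806).

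Gli1, whose transcript is the usual readout of pathway activity, could not be used here. Its probe was not detected on any of the 6 arrays, with detection p-values from 0.203 to 0.967, and it gives no measured level in either group.

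**Figure D2:**
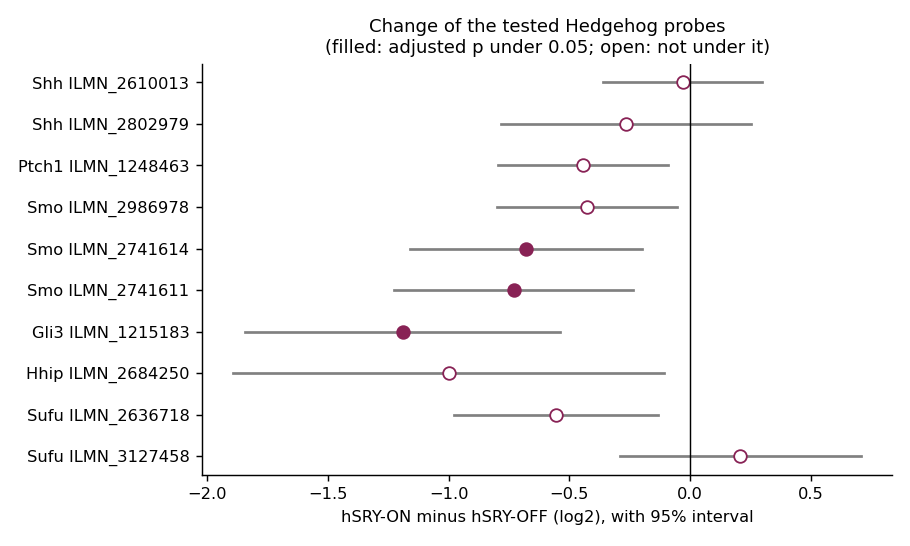
Difference of hSRY-ON from hSRY-OFF (horizontal axis, log2) for the 10 tested Hedgehog probes, with lines for the 95% interval. The 3 filled points, those of Gli3 (fitted partly on undetected hSRY-ON values) and 2 probes of Smo, are at -1.19, -0.73 and -0.68, and the intervals of both Shh probes and of 1 Sufu probe cross 0.

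The mice of hSRY-ON did not order the Hedgehog genes alike. For each Smo probe replicate 3 was the highest of the 3 and came close to the hSRY-OFF level. For Ptch1 replicate 3 was the lowest, for Gli3 replicate 1 was the lowest, and for Hhip replicate 2 was the highest. Over the 6 arrays the probes most like the Ptch1 probe were those of Orc3l, Rasl11b, Uros, Commd1 and Nt5m, with Pearson correlations from 0.988 to 0.994. This likeness is a description over arrays that share the group difference, and 289 probes had a correlation above 0.9.

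**Figure D3:**
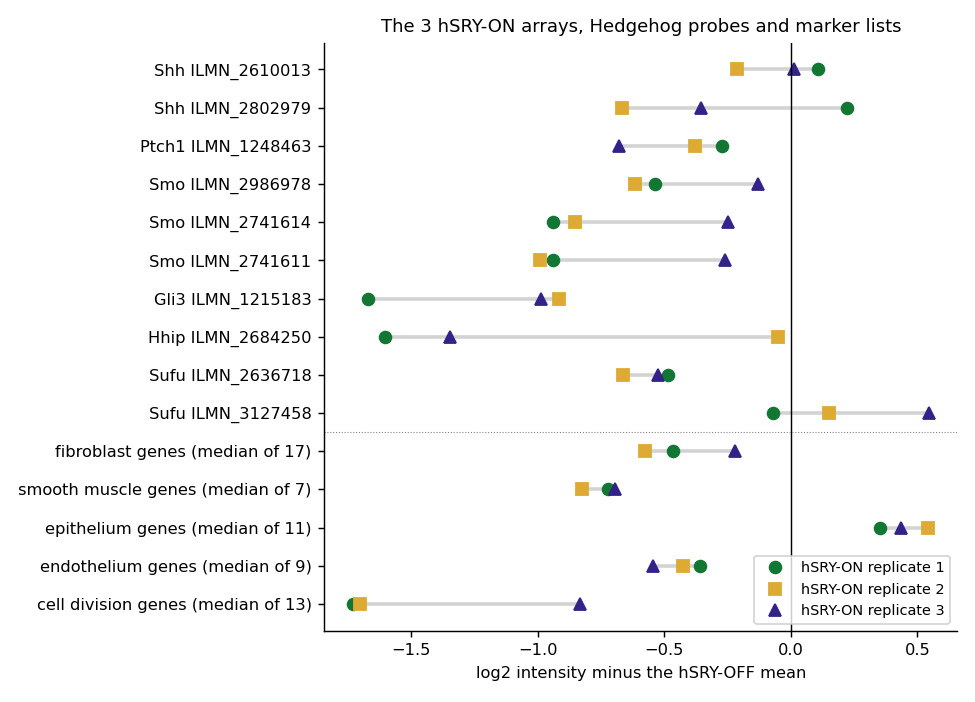
Value of each hSRY-ON lung minus the hSRY-OFF mean (horizontal axis, log2) for the tested Hedgehog probes and, under the dotted line, the median of 5 lists of marker genes. The Smo probes and the medians of the cell division, fibroblast and smooth muscle genes were nearest to the hSRY-OFF mean in replicate 3. There the cell division median was -0.83, against -1.73 and -1.70 in replicates 1 and 2. The fibroblast median was -0.22 against -0.46 and -0.58, and the smooth muscle median -0.69 against -0.72 and -0.82. The epithelium and endothelium medians were nearest in replicate 1.

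The other genes of the pathway were read from lists of known components, with the brightest tested probe of each gene. Over all 10292 genes taken this way, 14.9% were called higher and 12.9% lower in hSRY-ON, and the median change was -0.01. Among the genes that make, carry or receive the ligand, 6 of 16 were tested, 1 rose, 0 fell, and the median change was -0.06. The gene that rose was Gpc3, a glypican that competes for Hedgehog ligand at the cell surface. It read 12.63, 12.66 and 12.68 in hSRY-OFF and 13.17, 13.14 and 13.18 in hSRY-ON. The groups were far apart relative to their spread, and the change was 0.51 (SE 0.10, limma, adjusted p = 0.0133), although it was not called without hSRY-OFF replicate 1 (0.50, limma, adjusted p = 0.0648) or without hSRY-OFF replicate 2 (0.51, limma, adjusted p = 0.0604). Hhat, the enzyme that attaches palmitate to Hedgehog ligands, fell by 0.84 by its probe ILMN_2693022 (limma, adjusted p = 0.0145), which was detected on 1 hSRY-ON array and passed the filter through hSRY-OFF, while its brightest probe was not called (limma, adjusted p = 0.0742). The call of that probe was lost without hSRY-OFF replicate 2 or 3 (limma, adjusted p = 0.0564 and 0.0562).

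Dhh, the ligand made by Schwann cells in nerves, read 7.52, 8.03 and 7.92 in hSRY-OFF and 7.68, 6.84 and 7.03 in hSRY-ON. Replicate 1 of hSRY-ON lay within the hSRY-OFF range, and the change of -0.64 was not called (limma, adjusted p = 0.0967). Without that replicate it was -0.89 and was called (limma, adjusted p = 0.0155). The third ligand, Ihh, and the co-receptors Cdon and Gas1 were not detected on any array.

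Of 25 genes that relay the signal inside the cell, 19 were tested, 1 rose and 3 fell, with a median change of -0.17. The genes that fell were Csnk1e, a casein kinase, Evc, a cilium protein through which Smoothened signals, and Prkaca, the catalytic subunit of protein kinase A, which phosphorylates Gli proteins. Csnk1e fell by 0.61 (SE 0.13, limma, adjusted p = 0.0140) and Evc by 0.59 (SE 0.14, limma, adjusted p = 0.0243). Prkaca fell by 0.44 (SE 0.13) and was only just called (limma, adjusted p = 0.0494). Stk36, the vertebrate relative of the fly kinase Fused, rose by 0.71 (SE 0.19, limma, adjusted p = 0.0321). The calls of Csnk1e, Evc and Stk36 depended on single arrays, and the alternatives were not read for Prkaca. Csnk1e was not called without hSRY-OFF replicate 1 or 2 (limma, adjusted p = 0.0511 and 0.0658), nor Evc without hSRY-OFF replicate 1, hSRY-OFF replicate 3 or hSRY-ON replicate 2 (limma, adjusted p = 0.0982, 0.0843 and 0.0637). The call of Stk36 was lost without any one array other than hSRY-ON replicate 2, with changes from 0.57 to 0.75 (limma, adjusted p from 0.0510 to 0.113). Arrb1, a beta-arrestin that binds Smoothened, fell by 0.91 by its probe ILMN_1229853 (limma, adjusted p = 0.00904), while its brightest probe changed by -0.32 and was not called. Kif7, a kinesin of the cilium tip, was not found on the array.

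Of 26 genes for transport in the primary cilium, 21 were tested, 1 rose and 2 fell, and 16 were fitted higher, with a median of 0.19. Ift140, a part of the transport complex that returns cargo to the cell body, rose by 0.66 by its most significant probe (SE 0.12, limma, adjusted p = 0.00959). Tulp3, which carries receptors into the cilium and restrains the pathway, fell by 0.59 (SE 0.16, limma, adjusted p = 0.0315), a call lost without any one array other than hSRY-ON replicate 1 (limma, adjusted p from 0.0664 to 0.117). Bbs1, a member of the complex that moves membrane proteins in the cilium, was 1.17-fold lower with the floor described below. Kifap3, a part of the motor for outward transport, was 1.52-fold lower with that floor by its probe ILMN_1222022. Its brightest probe was not called (limma, adjusted p = 0.252). The Bbs1 probe and this Kifap3 probe were called but were not detected on any hSRY-ON array. Both passed the filter through hSRY-OFF, and leaving out an hSRY-OFF array removes them from the test. Their calls are therefore not read as support for a fall. Each fold takes, for hSRY-ON, the higher of the probe's value and the lowest detected value on each array. It is a difference of means without an interval, not a bound. The count of 2 falls includes Bbs1.

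**Figure D4:**
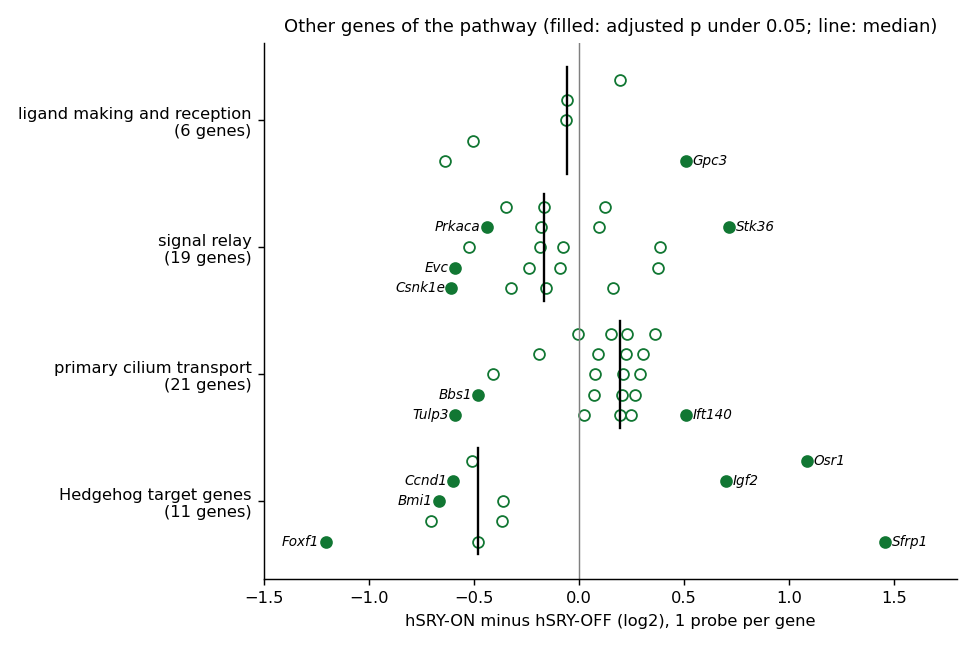
Change of hSRY-ON against hSRY-OFF (horizontal axis, log2) of every tested gene in 4 lists of the pathway, with 1 probe for each gene, a line at the median of each list and names beside the genes called. The medians are -0.06, -0.17, 0.19 and -0.48 from top to bottom, and the called targets lie on both sides of 0, from Foxf1 at -1.21 to Sfrp1 at 1.46.

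Among 20 known or proposed target genes, 11 were tested, 3 rose and 3 fell, and the median change was -0.48. Foxf1, the forkhead factor of lung mesenchyme that Shh induces, is named Foxf1a on the array. It read 11.81, 12.34 and 11.82 in hSRY-OFF and 10.62, 10.88 and 10.86 in hSRY-ON. The groups were widely separated, and the gene fell by 1.21 (SE 0.18), or 2.31-fold (limma, adjusted p = 0.00490), a call kept under all 15 alternatives. Bmi1, a Polycomb protein, fell by 0.67 (SE 0.12, limma, adjusted p = 0.00931).

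Ccnd1, which encodes the cell cycle regulator cyclin D1, was lower by each of its 3 probes, with changes of -0.79 (ILMN_2669793), -0.61 (ILMN_2601471) and -0.60 (ILMN_1221503) (limma, adjusted p = 0.0114, 0.0110 and 0.0364). Each of these calls was lost without at least 1 array, and with median scaling those of ILMN_2601471 and ILMN_1221503 were lost (-0.48 and -0.46, limma, adjusted p = 0.0506 and 0.124). Without hSRY-OFF replicate 2 the first had an adjusted p of 0.0518 (limma), and without hSRY-OFF replicate 1 the second had one of 0.0502 (limma). The third was called only without hSRY-ON replicate 3 among the 6 arrays left out, and otherwise changed by -0.65 to -0.50 (limma, adjusted p from 0.0670 to 0.112). The targets that rose were Sfrp1, Osr1 and Igf2. Sfrp1, a secreted antagonist of Wnt ligands, read 7.16, 7.43 and 6.77 in hSRY-OFF and 8.47, 8.56 and 8.70 in hSRY-ON, a rise of 1.46 (SE 0.18, limma, adjusted p = 0.00298). Osr1, a zinc finger factor of early lung mesenchyme, rose by 1.08 (SE 0.18, limma, adjusted p = 0.00716), and the growth factor gene Igf2 rose by 0.70 (limma, adjusted p = 0.0112). Targets such as Mycn and Jag1 were not detected on any array.

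Markers of the cells that send and receive the signal were read from the same arrays. All 11 epithelial marker genes found on the array were tested, so the lung label has its markers. Of these, 5 rose (Krt8, Krt18, Krt19, Elf3 and Sftpb) and 0 fell, with a median of 0.42, while Nkx2-1 and Sftpc changed by -0.42 and -0.25 and were not called. Their summed intensity over the list was 67625 to 72336 in hSRY-OFF and 72511 to 80381 in hSRY-ON. On the receiving side, 7 of 10 smooth muscle genes were tested, 0 rose and 6 fell, with a median of -0.72, and their sum was 41413 to 43033 in hSRY-OFF and 20919 to 29754 in hSRY-ON. Cnn1 and Synpo2 of that list were not detected. Of 18 fibroblast genes, 17 were tested, 2 rose (Dcn and Plin2) and 6 fell, among them Wnt2, Pdgfrb and Col1a1. The fibroblast median was -0.34 and the ranges of its sum overlapped, at 64231 to 71480 against 65053 to 67931. Col13a1 was not detected.

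Endothelial genes (9 tested of 10) had 0 rises and 4 falls, with a median of -0.42 and a sum of 82879 to 87472 against 65610 to 68364, and Kdr was not detected. Cell division genes (13 tested of 18) had 0 rises and 10 falls, with a median of -1.41 and a sum of 13557 to 17084 against 4568 to 9382. The part of these cells in the changes of Smo, Gli3 and Foxf1 was not tested. Genes of tissues beside or within the lung were read too. Thymocyte genes (5 tested of 10) had 4 falls and a median of -1.25, with a sum of 1181 to 1372 against 324 to 839, and Cd4, Cd8a, Rag1, Dntt and Themis were not detected. Cardiac muscle genes (8 of 10) had 1 rise and 3 falls, a median of -0.49 and a sum of 7658 to 10725 against 4610 to 9500. The rise was Nppa, at 5.11, 5.33 and 6.94 in hSRY-OFF and 12.32, 12.39 and 9.31 in hSRY-ON, and the sum includes it. The falls were Myl4 (-1.94), Sln (-0.88) and Myl2 (-2.59). Cartilage genes (5 of 12) had 1 rise and 1 fall, a median of 0.44 and a sum of 623 to 692 against 834 to 1352. The gene that rose was Chad, at 8.26, 8.32 and 8.34 in hSRY-OFF and 9.13, 9.27 and 10.11 in hSRY-ON. Chad had the highest mean of the 5 in both groups, and the sum includes it. The gene that fell was Col2a1 (-1.76), whose probe was detected on 1 hSRY-ON array and passed the filter through hSRY-OFF. Schwann cell genes (5 of 8), read because Dhh is made there, had 2 rises and 2 falls, a median of -0.39 and a sum of 7517 to 9344 against 6595 to 7139. Their part in the Hedgehog values was not tested either.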

How the data were processed

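Biotin-labelled RNA of 6 lungs was measured on Illumina MouseRef-8 arrays. The authors deposited, for 25697 probes on each array, an intensity (mean bead signal, linear scale, not background-corrected or normalized) and a detection p-value. The software that summarised the beads is not given in the sources used here. The study analysed its arrays with TCC, a method for counts, and the submitters' processing notes name limma. Because the values are intensities, limma 3.58.1 in R 4.3.3 was used.

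Normexp background correction used the detection p-values and an offset of 16. Quantile normalization and log2 followed, which removes any overall shift between groups and compresses changes near background. Probes were kept where 3 or more of 6 arrays had a detection p below 0.05 (13841, or 53.9%). The comparison used lmFit and eBayes, two-sided and without covariates, with Benjamini-Hochberg adjustment over all kept probes and a threshold of 0.05. An exact permutation test of 3 against 3 cannot give a p under 0.1, so none was used. The number of arrays limits precision. Each p-value sets the group difference against the spread between samples within groups, moderated over all tested probes. The pipeline was tested on simulated data with 200 changed probes. It called 56% of those with a log2 change of 1 and 89% of those with a change of 2. Unchanged probes made up 7.05% of its calls. Changes smaller than 1 were not simulated. The changed probes were drawn from those detected on all 6 arrays, and both groups were given the same spread. These shares therefore do not cover dim probes such as those of Gli3 and Sufu, or the wider spread of hSRY-ON.

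Probes of a gene were kept apart, except in the lists, which use the kept probe of highest mean. Older symbols of list genes other than the 9 were matched through RefSeq (GRCm38.p6). Probes were found for 191 of 204 list genes, the 9 included. Named were every probe of the 9 genes, the genes Ihh, Dhh, Cdon, Gas1, Kif7, Foxf1 and Ccnd1, up to 4 genes with the smallest p among the called probes of each pathway list (by the probe of smallest p), and the 5 genes most correlated with Ptch1. Igf2, Prkaca and the marker genes were named after their values were seen. Some list genes are not reported here. The members and lists were chosen with earlier results of these data known. Alternatives were other background corrections, normalizations and filters, array weights, robust estimation with a variance trend, a replicate block, a threshold of 0.01 and leaving out each array.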

Additional observations from a re-analysis of the deposited data

How the results depend on the processing

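The count of Hedgehog probes called (3) was 1 without the detection filter, 1 with the replicate number as a block and 0 at an adjusted p under 0.01 (limma, with 7 probes at an unadjusted p under 0.05). It ranged from 0 to 4 when 1 array was left out. It was 0 without hSRY-OFF replicate 1 and 0 without hSRY-OFF replicate 2 (limma, with 3 and 4 probes at an unadjusted p under 0.05), and 2 without hSRY-OFF replicate 3 or hSRY-ON replicate 2. Leaving out an array leaves fewer samples, and the calls over all probes then ranged from 1504 to 4384. Every Hedgehog probe called under any alternative was lower in hSRY-ON.

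The change of Shh probe ILMN_2610013, -0.03, turned to 0.0026 with cyclic loess normalization and 0.049 with median scaling, and it ranged from -0.11 to 0.059 when 1 array was left out. The cause was not tested. The other member and named probes kept their sign under every alternative run. Over the 28 member and named probes and all alternatives, a call was lost 54 times and gained 8 times.

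Same-numbered hSRY-OFF and hSRY-ON arrays did not deviate together (correlations of -0.11, 0.10 and -0.09). Such correlations cannot tell whether same-numbered mice were littermates or were processed together, and the labels do not say. With the replicate block, Gli3 was the 1 Hedgehog probe called, and 2655 of all probes were called against 3728. Bbs1 and Tulp3 were not called without background correction, with a variance trend and robust estimation, with the replicate block, or without hSRY-ON replicate 2. Bbs1 was not called with a background offset of 50 either (limma, adjusted p = 0.0808). Signal near background limits Ptch1, Gli3, Sufu, Gli1 and Boc most.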
